A study of Mus musculus with 18 samples.

Results

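The 34 genes described here encode the machinery of DNA replication and of entry into S phase, and were taken by name as a fixed list out of the 55536 genes of the deposited count table. All 34 were found, each under 1 gene identifier, and all 34 passed the filter on low counts that left 17092 genes to test. By role they were the 6 subunits of the core replicative helicase (Mcm2 to Mcm7), 9 factors that license or fire replication origins (Mcm10, Cdc45, Cdc6, Cdt1, Gins1, Gins2, Gins3, Orc1 and Orc6), and 6 subunits of DNA polymerases and of the clamp loader (Pola1, Prim1, Pold1, Pole, Rfc3 and Rfc4). The others were 4 enzymes of nucleotide supply (Rrm1, Rrm2, Tyms and Tk1), 6 factors of chromatin assembly, maintenance methylation, base repair and ligation (Chaf1a, Chaf1b, Uhrf1, Ung, Fen1 and Lig1), and 3 regulators of the passage from G1 into S phase (E2f1, Ccne1 and Ccne2).

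The genes were measured by RNA sequencing of mouse mammary organoids, clumps of mammary tissue that grow in a gel. They came from C57BL/6 mice of 6 to 7 weeks, either wild type (WT) or carrying RasGRP1-/- (KO), meant to remove RasGRP1, an exchange factor that activates Ras. All cultures sat for 5 days in matrigel, in DMEM/F12 to which insulin, selenium and transferrin had been added,, and differed in the growth factors added. EGF medium held 2.5 nM EGF, RW medium held 0.1 nM NGS-Wnt, a surrogate Wnt ligand, with 8.3 nM Rspo2 (R-spondin 2), which strengthens Wnt signalling, and ERW medium held all 3 factors. Each of the 6 combinations of genotype and medium had 3 libraries, and the labels place the libraries numbered 1, 2 and 3 in batches 1, 2 and 3, so that every batch holds 1 library of each group. The labels do not say how many animals were pooled for a culture, nor in which cells RasGRP1 is lacking.

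As background, replication starts at origins bound by the origin recognition complex, of which Orc1 and Orc6 are subunits. In G1 phase Cdc6 and Cdt1 help that complex to load the ring of Mcm2 to Mcm7 onto DNA. At the start of S phase Cdc45 and the GINS complex join the ring to form the active helicase, and polymerases, the sliding clamp and DNA ligase 1 copy and seal the strands. Cyclin E drives this transition, and E2F factors, held back by the retinoblastoma protein until then, are known to activate many genes of the list. In cultured mammary epithelium both EGF and Wnt ligands are known to support proliferation.

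Promoters of 29 of the 34 members were matched by symbol in RefSeq (GRCm38.p6), and Mcm4, Gins1, Gins2, Pole and Ccne2 were not matched. The 4 members with a promoter that differed most between EGF and RW medium are shown, chosen by the size of that difference and not by their words. Each line gives bases before the RefSeq start site, 5′ to 3′ on the strand of the gene, without any exon of a protein-coding gene in the GENCODE annotation, and capitals mark E2F words and CCAAT boxes on either strand.
Prim1: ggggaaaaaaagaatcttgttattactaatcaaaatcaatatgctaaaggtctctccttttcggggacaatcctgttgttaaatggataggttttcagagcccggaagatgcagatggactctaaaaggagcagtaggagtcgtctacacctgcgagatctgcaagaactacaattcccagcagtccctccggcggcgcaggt
Rfc4: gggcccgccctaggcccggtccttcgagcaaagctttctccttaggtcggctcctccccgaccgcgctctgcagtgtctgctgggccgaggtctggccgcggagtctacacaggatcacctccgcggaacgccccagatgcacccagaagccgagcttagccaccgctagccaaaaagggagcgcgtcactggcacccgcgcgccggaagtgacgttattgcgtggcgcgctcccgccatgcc
Lig1: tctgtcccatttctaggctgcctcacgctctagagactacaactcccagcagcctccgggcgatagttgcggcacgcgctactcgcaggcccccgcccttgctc
Mcm6: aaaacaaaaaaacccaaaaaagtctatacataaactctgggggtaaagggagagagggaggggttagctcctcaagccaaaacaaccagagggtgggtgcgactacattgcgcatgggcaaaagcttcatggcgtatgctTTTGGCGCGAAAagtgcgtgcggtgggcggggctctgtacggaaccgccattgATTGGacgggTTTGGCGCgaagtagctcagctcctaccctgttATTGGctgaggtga
The Prim1 stretch is chr10:128014965-128015167 on the plus strand, that of Rfc4 is chr16:23127738-23127980 on the minus strand, that of Lig1 is chr7:13278722-13278825 on the plus strand, and that of Mcm6 is chr1:128359706-128359955 on the minus strand. The E2F words searched were TTTCCCGC, TTTGGCGC, TTTCGCGC and TTTGCCGC on both strands, in windows of 300 bases from 250 before to 50 after the start. Mcm6 held 3 such words, TTTGGCGC beginning 110 and 47 bases before the start and TTTCGCGC on the opposite strand at 106 bases, which overlaps the first. It also held 2 CCAAT boxes on the opposite strand, at 57 and 14 bases before the start. Lig1 had 3 windows with different starts, and the one shown was picked because it held the most E2F words. It held TTTCGCGC on the opposite strand 27 bases after its start, outside the stretch shown. The other windows of Lig1 held no E2F word, nor did those of Prim1 and Rfc4. The window of Prim1 held CCAAT 9 bases before the start, within an exon and so not shown. An E2F word stood in the windows of 13 of the 29 members (Mcm3, Mcm5, Mcm6, Mcm7, Cdc6, Cdt1, Gins3, Orc1, Pola1, Pold1, Rfc3, Uhrf1 and Lig1) and in those of 2.6% of all 27025 genes with a window. CCAAT stood in the windows of 17 of the 29 members and of 41.1% of all genes. The median log2 difference of EGF against RW medium was -0.41 over the 13 members with an E2F word and -0.20 over the 16 without one, which is a description with no test.

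The libraries held 24290097 to 31269899 counts, and mitochondrial genes took 1.28% to 2.54% of them. The targeted gene, Rasgrp1, was near the limit of detection. WT libraries 1, 2 and 3 held 28, 10 and 25 counts of it with RW, 15, 15 and 21 with EGF and 7, 6 and 18 with ERW medium. KO libraries held 0, 0 and 9, then 0, 6 and 4, then 0, 0 and 6 counts. KO was lower than WT over the media by 2.71 ± 0.72 (SE) on the log2 scale, with an adjusted p of 0.173 in edgeR's quasi-likelihood test. The labels name the cells mammary epithelial cells, and all 10 epithelial markers examined were detected, with 6463 to 12150 CPM (counts scaled to a library of 1000000) summed per library. Libraries also held RNA of other cells: 10 fibroblast markers summed to 1394 to 6089 CPM, whereas of 10 lymphocyte markers 9 were too low to test and Cd3d and Ms4a1 had no count in any group.

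The list was transcribed at unequal levels. Per kilobase of exon, over all 18 libraries, Mcm6 was highest at 36.8 CPM, followed by Mcm5 at 27.3 CPM, Mcm4 at 23.8 CPM, Mcm3 at 23.2 CPM and Mcm7 at 22.8 CPM. Lig1, the ligase that seals the lagging strand, came next at 21.5 CPM per kilobase. The lowest were Orc1 at 1.57 CPM per kilobase, Gins3 at 2.06, Ccne2 at 2.10 and Cdc6 at 2.26, while the origin factors Cdt1 and Orc6 stood in the middle of the list at 13.2 and 9.90. Counts per library ranged from 66 to 277 for Orc1 and from 2384 to 7706 for Mcm6, so the counting error is largest for Orc1, Gins3, Gins1 and Ccne2. By the authors' deposited gene spans, introns included, 10 members overlap a protein-coding gene on the opposite strand. They are Cdc45, Chaf1a, Rfc4, Fen1, Tk1, Ccne2, Mcm7, Orc6, Gins2 and Lig1. Overlaps given below are of these spans, and how far exons overlap was not examined. The reads of such a pair may not be told apart in the overlap.

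Most of the list was lowest in EGF medium. Averaged over WT and KO, 17 of the 34 members were lower in EGF than in RW medium, 1 was higher and 16 did not pass the test (edgeR's quasi-likelihood test with the batch in the model, Benjamini-Hochberg adjusted p under 0.05 over all genes). Of all genes tested 25.5% were called, 12.5% of them lower and 12.9% higher. The median log2 difference was -0.35 over the members and -0.02 over all genes. The differences were modest, from a fold of 0.60 (Prim1) to 1.33 (E2f1). With the batch left out of the model, 1 member stayed called higher (E2f1) and 5 lower (Mcm6, Prim1, Rfc4, Pold1 and Lig1), with 11.8% of all genes called. Without batch 3, with the block, 7 members and 12.2% of all genes were called.

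**Figure D1:**
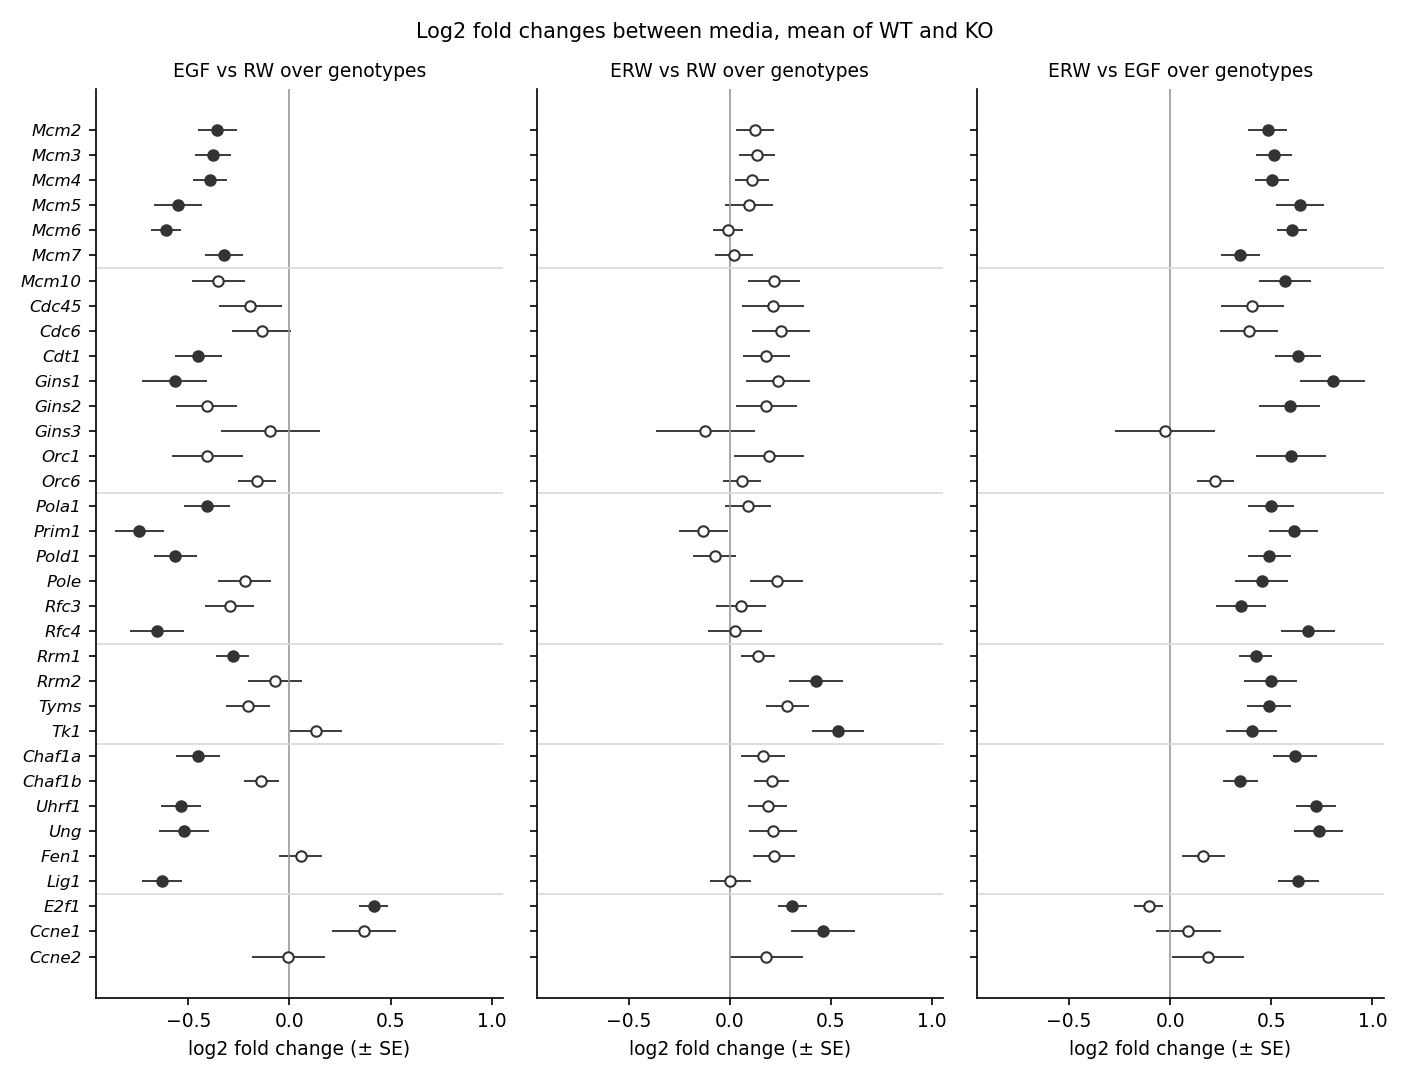
Log2 fold change (x axis, ± SE) of each of the 34 genes between media, averaged over WT and KO; filled points passed an adjusted p of 0.05, and grey lines part the 6 roles. Most points lie left of 0 in EGF against RW medium (30 of 34) and right of 0 in ERW against EGF medium (32 of 34).

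All 6 subunits of the helicase core fell in EGF against RW medium, by 0.32 (Mcm7) to 0.61 (Mcm6) on the log2 scale. In WT, libraries 1, 2 and 3 held 166, 187 and 232 CPM of Mcm6 in RW medium and 119, 122 and 134 CPM in EGF medium. In KO they held 150, 179 and 255 CPM in RW medium and 98.2, 125 and 161 CPM in EGF medium. Mcm6 was thus lower in EGF medium in each of the 6 pairs of libraries that share a genotype and a batch, although KO_EGF 3 lay above KO_RW 1. The difference was -0.61 ± 0.07 (SE), adjusted p = 7.45e-06 in edgeR, the lowest adjusted p of the list. Mcm5 was lower by 0.55 ± 0.12 (adjusted p = 0.00339, edgeR). Its CPM in RW medium were 86.1, 132 and 141 in WT and 81.8, 110 and 166 in KO. In EGF medium they were 74, 76.5 and 75.4 in WT and 64, 80.8 and 106 in KO.

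The largest fall of the list belonged to Prim1, the catalytic subunit of primase, which lays the RNA primers for DNA polymerase alpha. In WT it stood at 22.8, 28.2 and 35.3 CPM in RW medium and at 15.8, 16.3 and 14.8 CPM in EGF medium. In KO it stood at 19.3, 24.2 and 34.2 CPM in RW medium and at 16.1, 14.2 and 18.5 CPM in EGF medium. Prim1 was the member whose 6 RW libraries all lay above its 6 EGF libraries; 8.28% of all genes did not overlap in that comparison. Its log2 difference was -0.74 ± 0.12 (SE), adjusted p = 0.000171 in edgeR. Of the 6 polymerase and clamp loader genes 4 fell, which were Prim1, Pola1 (the catalytic subunit of polymerase alpha, by 0.41), Pold1 (that of polymerase delta, by 0.56) and Rfc4. Rfc4, a subunit of the clamp loader, held 9.34, 13.3 and 13.8 CPM in WT_RW and 7.55, 6.59 and 6.52 CPM in WT_EGF. In KO it held 10.5, 15.4 and 15 CPM in RW medium and 6.63, 9.44 and 12.6 CPM in EGF medium. Over genotypes Rfc4 fell by 0.65 ± 0.14 on the log2 scale (adjusted p = 0.00139, edgeR). Rfc4 shares 194 bases with Eif4a2 on the opposite strand, which has many more reads, and the strand setting of the counting is not given in the sources used here, so its level is uncertain. Pold1 held 60.9, 53.9 and 69 CPM in WT_RW and 49.5, 38.4 and 36.5 CPM in WT_EGF. KO libraries held 59.6, 43.7 and 70.9 CPM of it in RW medium and 41.1, 27.5 and 48.4 CPM in EGF medium. Pole, the catalytic subunit of polymerase epsilon, and Rfc3 had log2 differences of -0.22 and -0.30 and were not called.

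Among the 9 origin factors 2 fell: Cdt1, the licensing factor, by 0.45 ± 0.12, and Gins1, a subunit of the GINS complex, by 0.57 ± 0.16 on the log2 scale. Cdt1 held 27.8, 40.7 and 54.1 CPM in WT_RW and 24.3, 27.9 and 31.4 CPM in WT_EGF. KO libraries held 26.8, 45.9 and 66.4 CPM of it in RW medium and 19.9, 37.7 and 46.2 CPM in EGF medium. The spread between batches of Cdt1 was wider than the gap between media, and each EGF library lay below the RW library of its own genotype and batch. Mcm10, Gins2 and Orc1 had log2 differences of -0.35, -0.41 and -0.41, with adjusted p of 0.056, 0.0555 and 0.102 in edgeR. Cdc45, Cdc6, Orc6 and Gins3 lay between -0.19 and -0.09 and were not called. Gins2 overlaps 2758 bases of Gse1 and Cdc45 209 bases of Ufd1 on the opposite strand.

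Of the chromatin, repair and ligation genes 4 of 6 fell. Lig1 held 73.7, 120 and 125 CPM in WT_RW and 67.7, 66.1 and 63.5 CPM in WT_EGF. In KO its values were 76.7, 99.8 and 131 CPM in RW medium and 49.1, 68.1 and 80.7 CPM in EGF medium. In batch 1 of WT the values of the 2 media were close, and in the other pairs Lig1 was lower in EGF medium. The log2 difference was -0.63 ± 0.10 (SE), adjusted p = 0.000214 in edgeR. Uhrf1, which recruits maintenance methylation to newly copied DNA, fell by 0.54, Ung, the uracil glycosylase, by 0.52, and Chaf1a, the large subunit of the chromatin assembly factor CAF-1, by 0.45. Its partner subunit Chaf1b, at -0.14, and Fen1, the flap nuclease, at 0.06, were not called. On the opposite strand Lig1 overlaps 1439 bases of 6330408A02Rik, Chaf1a 982 bases of Ubxn6 and Fen1 156 bases of Tmem258.

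Of the 4 nucleotide supply genes 1 fell. Rrm1, the large subunit of ribonucleotide reductase, fell by 0.28 ± 0.08 on the log2 scale (adjusted p = 0.0195, edgeR). In RW medium Rrm1 held 120, 184 and 188 CPM in WT and 116, 139 and 199 CPM in KO. In EGF medium it held 113, 127 and 131 CPM in WT and 109, 129 and 157 CPM in KO, so that the media overlapped in both genotypes. The small subunit Rrm2, thymidylate synthase (Tyms) and thymidine kinase 1 (Tk1) had log2 differences of -0.07, -0.20 and 0.13 and were not called.

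E2f1 went the other way. This gene encodes an activating E2F factor and is itself known as an E2F target. It held 36.8, 37.3 and 47.4 CPM in WT_RW and 52.8, 47.8 and 59.7 CPM in WT_EGF. In KO it held 37.6, 35.4 and 52.7 CPM in RW medium and 47.8, 51.7 and 69.5 CPM in EGF medium. It was higher in EGF medium in all 6 pairs that share genotype and batch, and rose by 0.42 ± 0.07 (SE) on the log2 scale, adjusted p = 0.000236 in edgeR. Cyclin E1 (Ccne1) was at 0.37 ± 0.16 with an adjusted p of 0.106 and cyclin E2 (Ccne2) at -0.01 ± 0.18 with one of 0.988, both by edgeR and neither called. The span of Ccne2 shares 5622 bases with that of Ints8 on the opposite strand, which may bear on its level.

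**Figure D2:**
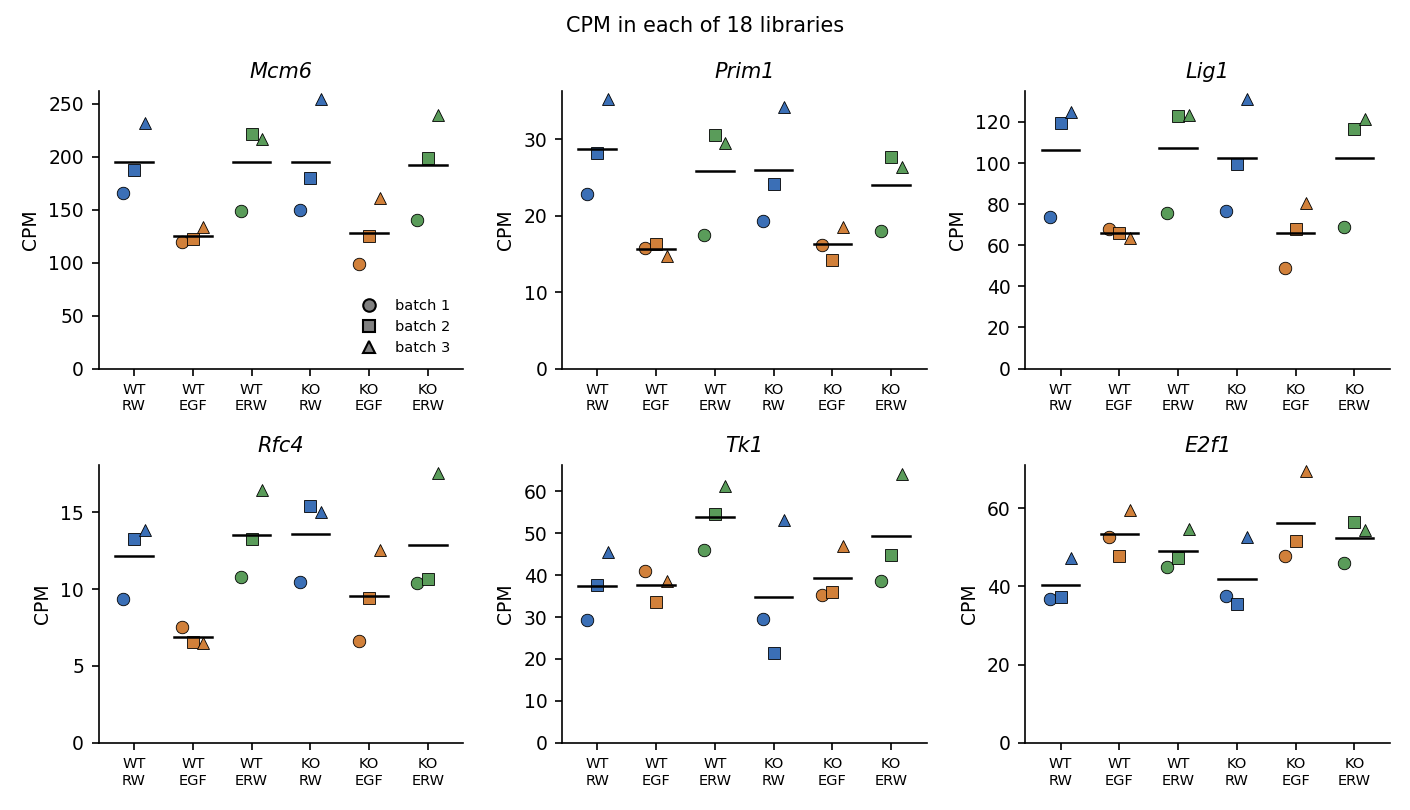
CPM (y axis, from 0) of 6 members in each of the 18 libraries, by genotype and medium; the marker shape gives the batch and bars are means of 3 libraries. Mcm6, Prim1, Lig1 and Rfc4 are low in both EGF groups, E2f1 is high there, and Tk1 is highest in both ERW groups.

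Adding NGS-Wnt and Rspo2 to EGF went with higher levels of most of the list. In ERW against EGF medium, over genotypes, 26 of 34 members were higher, none was lower and 8 did not pass the test, with 27.9% of all genes called (13.4% higher and 14.5% lower). The median log2 difference was 0.49 over the members and 0.01 over all genes. Without the batch in the model 8 members stayed called (Mcm6, Gins1, Prim1, Pold1, Rfc4, Chaf1a, Ung and Lig1), with 10.2% of all genes called. With the block, 14 members were called without batch 2 and 14 without batch 3, where 23.1% and 10.7% of all genes were called. In the same comparison all 10 endothelial and all 10 adipocyte markers fell, and their part in the result was not tested.

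All 6 helicase genes, all 6 polymerase and clamp loader genes and all 4 nucleotide genes rose in ERW against EGF medium, as did 5 of 9 origin factors and 5 of 6 chromatin and repair genes. None of the 3 regulators was called. Gins1 rose most. In EGF medium it held 4.18, 5.47 and 4.49 CPM in WT and 5.73, 4.42 and 5.6 CPM in KO. In ERW medium it held 6.32, 9.08 and 9.86 CPM in WT and 6.77, 10.8 and 10.7 CPM in KO. All 6 ERW libraries lay above all 6 EGF libraries for Gins1, as for 6.41% of all genes in either direction. Its log2 difference was 0.80 ± 0.16 (SE), adjusted p = 0.00118 in edgeR.

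Ung followed with a log2 rise of 0.74 ± 0.12. In EGF medium Ung held 16.4, 15 and 18.1 CPM in WT and 12.1, 18.8 and 23.9 CPM in KO. In ERW medium it held 20.2, 32.9 and 37.4 CPM in WT and 19.4, 26.1 and 41.1 CPM in KO. For Ung, KO_ERW 1 lay below KO_EGF 3. Uhrf1 rose by 0.72 ± 0.10 (adjusted p = 6.53e-05, edgeR). In EGF medium Uhrf1 held 55.6, 62.5 and 64.4 CPM in WT and 42.7, 71.4 and 85.2 CPM in KO. In ERW medium it held 69.8, 131 and 131 CPM in WT and 61, 127 and 131 CPM in KO, low in batch 1 and high in the other two.

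In ERW medium Mcm6 held 149, 221 and 216 CPM in WT and 140, 199 and 239 CPM in KO, and each value exceeded that of the EGF library of the same genotype and batch. Rfc4 held 10.8, 13.3 and 16.5 CPM in WT_ERW and 10.4, 10.7 and 17.6 CPM in KO_ERW. Lig1 held 75.7, 123 and 123 CPM in WT_ERW and 68.9, 116 and 122 CPM in KO_ERW. As for Uhrf1, the batch 1 libraries of Lig1 were the lowest of both groups. Rfc4, Mcm5, Lig1 and Cdt1 rose by 0.68, 0.64, 0.63 and 0.63 on the log2 scale, and Chaf1a, Prim1, Mcm6 and Orc1, the ATPase of the origin recognition complex, by 0.62, 0.61, 0.60 and 0.60. Gins2, Mcm10, Mcm3, Mcm4, Pola1, Rrm2, Pold1, Tyms and Mcm2 rose by between 0.48 and 0.59. The smaller rises, from 0.35 to 0.45, were those of Pole, Rrm1, Tk1, Rfc3, Mcm7 and Chaf1b. Cdc45 and Cdc6 had log2 differences of 0.41 and 0.39, with adjusted p of 0.0585 and 0.0528 in edgeR. Orc6, Ccne2, Fen1, Ccne1, Gins3 and E2f1 lay between -0.11 and 0.22. All 17 members called lower in EGF against RW medium were among the 26 called higher in ERW against EGF medium, 2 comparisons that share the EGF libraries.

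Few members passed the test between RW and ERW medium. In ERW against RW medium over genotypes 4 members were higher, none was lower and 30 did not pass the test, against 22.9% of all genes called (11.0% higher and 11.9% lower), a smaller share of the members than of all genes. The median log2 difference was 0.18, and 30 of the 34 values were positive. The 4 were Tk1, which salvages thymidine, at 0.54 ± 0.13 (adjusted p = 0.00619), Ccne1 at 0.46 ± 0.16 (0.0463), Rrm2 at 0.43 ± 0.13 (0.0306) and E2f1 at 0.31 ± 0.07 (0.00364), all by edgeR. Without the batch in the model none of the 34 was called, against 10.1% of all genes. The count was 2 without any 1 of WT_RW 1, WT_RW 2, WT_RW 3, WT_ERW 2, WT_ERW 3, KO_RW 1, KO_RW 2, KO_ERW 2 or KO_ERW 3, 1 without batch 2, and up to 6 in the other fits that left out a library or batch. Over these 15 fits 13.2% to 21.1% of all genes were called.

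Tk1 held 29.3, 37.6 and 45.5 CPM in WT_RW and 46, 54.7 and 61.2 CPM in WT_ERW. In KO it held 29.6, 21.5 and 53.1 CPM in RW medium and 38.6, 44.9 and 64.2 CPM in ERW medium. For Tk1, KO_RW 2 was the lowest of all 18 libraries. Rrm2 held 36.5, 56 and 64.6 CPM in WT_RW against 44.7, 82.4 and 87.4 CPM in WT_ERW. In KO it held 30.5, 48.5 and 79.5 CPM in RW medium against 37.3, 80.5 and 94.8 CPM in ERW medium. Ccne1 held 8.36, 16.1 and 13.7 CPM in WT_RW and 10.2, 25.1 and 21.2 CPM in WT_ERW. In KO it held 7.73, 15.5 and 18.4 CPM in RW medium and 9.32, 22.3 and 23.5 CPM in ERW medium. For Rrm2 and Ccne1 the media overlapped in both genotypes, while every ERW library exceeded the RW library of its own genotype and batch.

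E2f1 held 45, 47.3 and 54.8 CPM in WT_ERW and 46, 56.5 and 54.4 CPM in KO_ERW, levels between those of its RW and EGF libraries on average. Tyms held 20.7, 23.1 and 26.4 CPM in WT_RW and 23.1, 32.1 and 29.2 CPM in WT_ERW, with a log2 difference over genotypes of 0.28 ± 0.11 and an adjusted p of 0.0669 in edgeR. The helicase genes lay between -0.01 (Mcm6) and 0.14 (Mcm3) in ERW against RW medium, and the polymerase and clamp loader genes between -0.13 (Prim1) and 0.23 (Pole). Lig1 was at 0.00 ± 0.10. By mean CPM over 6 libraries, 26 members were ordered ERW, then RW, then EGF medium. Tk1, Fen1 and Ccne1 had the order ERW, EGF, RW, and Mcm6, Prim1 and Pold1 the order RW, ERW, EGF. E2f1 alone was ordered EGF, ERW, RW, and Gins3 alone RW, EGF, ERW. For 30 of the 34 members the ERW and RW levels in this order did not differ by the test.

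The same contrasts were made within each genotype. In WT, 12 members were lower and 1 was higher in EGF against RW medium, where 15.4% of all genes were called, 6.92% lower and 8.52% higher. In ERW against EGF medium in WT, 19 were higher and none lower, where 15.6% of all genes were called, 6.85% higher and 8.78% lower. In KO, 5 were lower and 1 was higher in EGF against RW medium (13.5% of all genes called, 5.94% lower and 7.55% higher). That count of 6 became 10 with DESeq2 (16.5% of all genes) and 12 with only the compared groups in the fit (14.8% of all genes). In ERW against EGF medium in KO, 12 were higher and none lower (11.6% of all genes called, 5.17% higher and 6.48% lower). The 5 that fell in KO, Mcm6, Prim1, Pold1, Uhrf1 and Lig1, also fell in WT, and 11 members rose in ERW against EGF medium in both genotypes. In ERW against RW medium none was called in WT (10.7% of all genes called; 4 members at an unadjusted p under 0.05 by edgeR and 1 called by DESeq2), and 1, E2f1, was higher in KO (12.7% called, 6.1% higher). Without the batch in the model, the EGF against RW count was 1 (Prim1) in WT and 0 in KO, the ERW against EGF count was 0 in both genotypes, and the ERW against RW count was 0 in both. In those fits 5.2% and 4.27% of all genes were called in EGF against RW medium, 2.16% and 0.673% in ERW against EGF medium and 2.36% and 2.57% in ERW against RW medium, in WT and KO in turn.

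These counts within a genotype changed when libraries were left out, as did the share of all genes called. EGF against RW in WT gave 8, 5 and 8 calls without WT_RW 1, 2 and 3, 21, 7 and 4 without WT_EGF 1, 2 and 3, 4 without batch 2 and 1 without batch 3. ERW against EGF in WT gave 9 and 6 without WT_EGF 2 and 3, 7 without WT_ERW 2, 3 without batch 2 and 2 without batch 3. EGF against RW in KO gave 3 without KO_RW 3, KO_EGF 2 or KO_EGF 3 and 1 without batch 3. ERW against EGF in KO gave 6, 3 and 4 without KO_EGF 1, 2 and 3, 2 without KO_ERW 2 or 3, 2 without batch 2 and 1 without batch 3. The single call of ERW against RW in KO was lost without KO_RW 1, KO_RW 2, KO_ERW 1, KO_ERW 2, batch 1 or batch 2, and became 3 calls without KO_RW 3 and 2 without batch 3. Over the fits that left out a library or batch, the share of all genes called in WT ranged from 5.56% to 14.4% in EGF against RW medium and from 3.75% to 15.2% in ERW against EGF medium, lowest without batch 3. Without batch 3 in KO it was 5.2% in EGF against RW, 2.1% in ERW against EGF and 6.57% in ERW against RW medium.

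The difference between the genotypes in a response to medium was tested as an interaction. No member was called in any of the 3 interactions (0.0% of all genes were called by edgeR in each, with no member at an unadjusted p under 0.05 and none called by DESeq2). The median log2 difference between the genotypes was 0.11 in EGF against RW medium and -0.13 in ERW against EGF medium. The widest was that of Rfc4 in ERW against EGF medium, at -0.49 ± 0.27 (SE), unadjusted p = 0.088 by edgeR. The SE of these differences had a median of 0.23, which limits the differences that could be detected.

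No member passed the test between KO and WT organoids. Over the media 0 of 34 was called by edgeR, with 0 at an unadjusted p under 0.05 and 0 by DESeq2, and 0.339% of all genes was called. In EGF, RW and ERW medium 0 members were called, with 0.0702%, 0.0819% and 0.0819% of all genes called, and at an unadjusted p under 0.05 stood 1 member in EGF medium (Rfc4) and 0 in the others. DESeq2 called 0 in each. Over the media the members lay between -0.15 and 0.22 on the log2 scale in KO against WT, with a median of -0.02 and a median SE of 0.10.

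**Figure D3:**
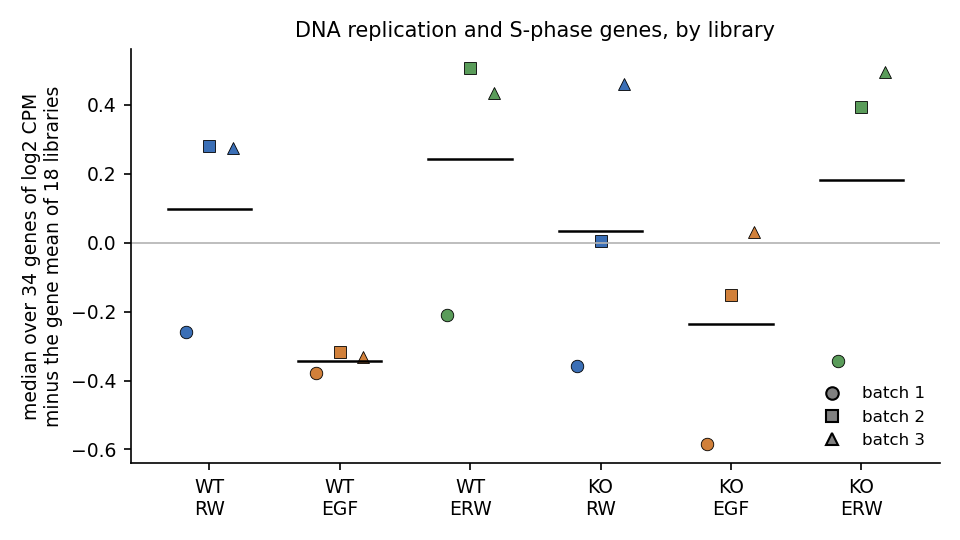
Each point is 1 library: the median over the 34 genes of log2 CPM minus the mean of that gene over 18 libraries (y axis), by genotype and medium; marker shapes give the batch and bars the mean of 3 libraries. KO_EGF 1 is lowest at -0.59 and WT_ERW 2 highest at 0.51, and the batch 1 libraries are the lowest of their group in all 6 groups.

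Batches took a larger share of the members' variance than media. Of the variance in log2 CPM of the members, 45.7% lay between batches, 31.7% between media and 1.14% between genotypes, whereas over all genes tested the shares were 25.4%, 29.9% and 4.75%. Batch 1 had the lowest mean in 33 of 34 members, Pold1 being the exception, and batch 3 the highest in 26. The median log2 ratio was 0.48 for batch 2 over batch 1 and 0.58 for batch 3 over batch 1. Cdt1 averaged 25.9, 44.5 and 54.0 CPM in batches 1, 2 and 3. Batch took the largest share of variance in Chaf1b (83.6%) and Fen1 (77.1%), the origin factor Orc6 following at 68.5%, and little in Ccne2 (4.04%) and Gins3 (8.95%). Medium took more than batch in 12 members, among them Prim1, Mcm6, Gins1, Pold1, Rfc4, Chaf1a and Lig1. Since every batch holds all 6 groups, the batch does not separate the media.

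**Figure D4:**
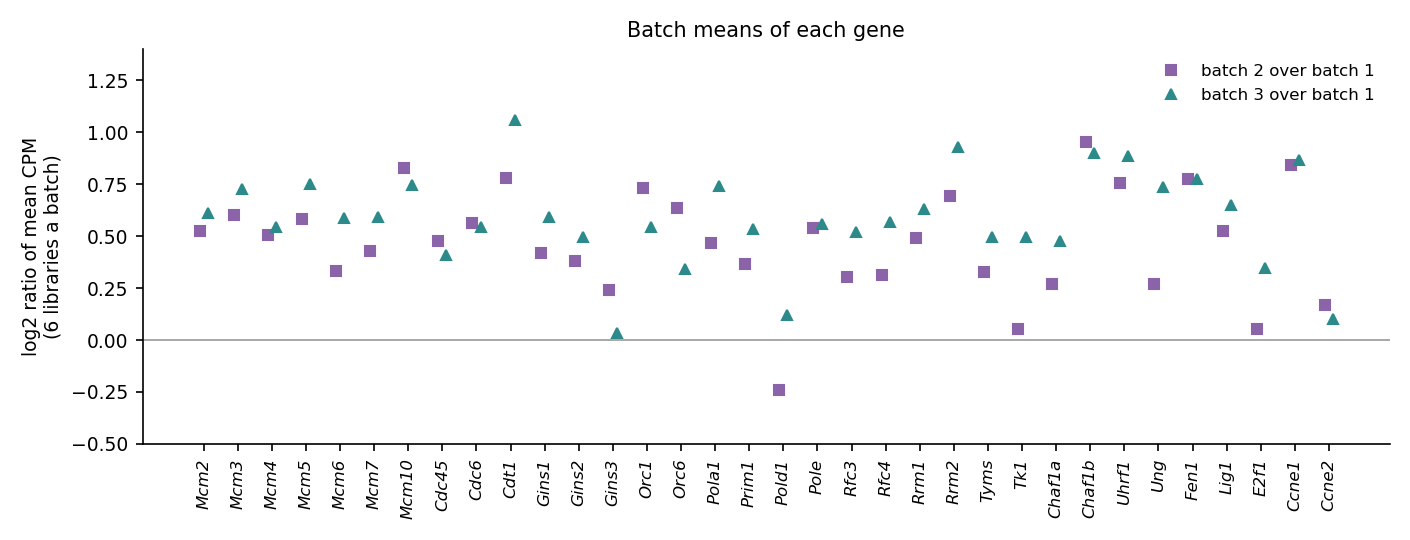
Log2 ratio of mean CPM (y axis, 6 libraries a batch) of batch 2 (squares) and batch 3 (triangles) over batch 1, for each of the 34 genes. All points except that of Pold1 in batch 2 lie above 0, with Cdt1 highest in batch 3 at 1.06.

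The media were therefore also compared within batches. In EGF against RW medium 16 members were lower in all 6 pairs of genotype and batch, against 13.6% of all genes, and 1 (E2f1) was higher in all 6, against 15.1%. In ERW against EGF medium 22 were higher in all 6 pairs (14.6% of all genes) and in ERW against RW medium 10 (14.0%). The size of the difference varied by batch. The median log2 ratio of EGF to RW medium over the members was -0.12, -0.56 and -0.59 in batches 1, 2 and 3 of WT and -0.20, -0.15 and -0.43 in those of KO. That of ERW to EGF medium was 0.15, 0.80 and 0.74 in WT and 0.22, 0.60 and 0.47 in KO, smallest in batch 1 of both genotypes. That of ERW to RW medium was 0.04, 0.24 and 0.17 in WT and 0.02, 0.44 and 0.03 in KO. Each such ratio compares single libraries.

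**Figure D5:**
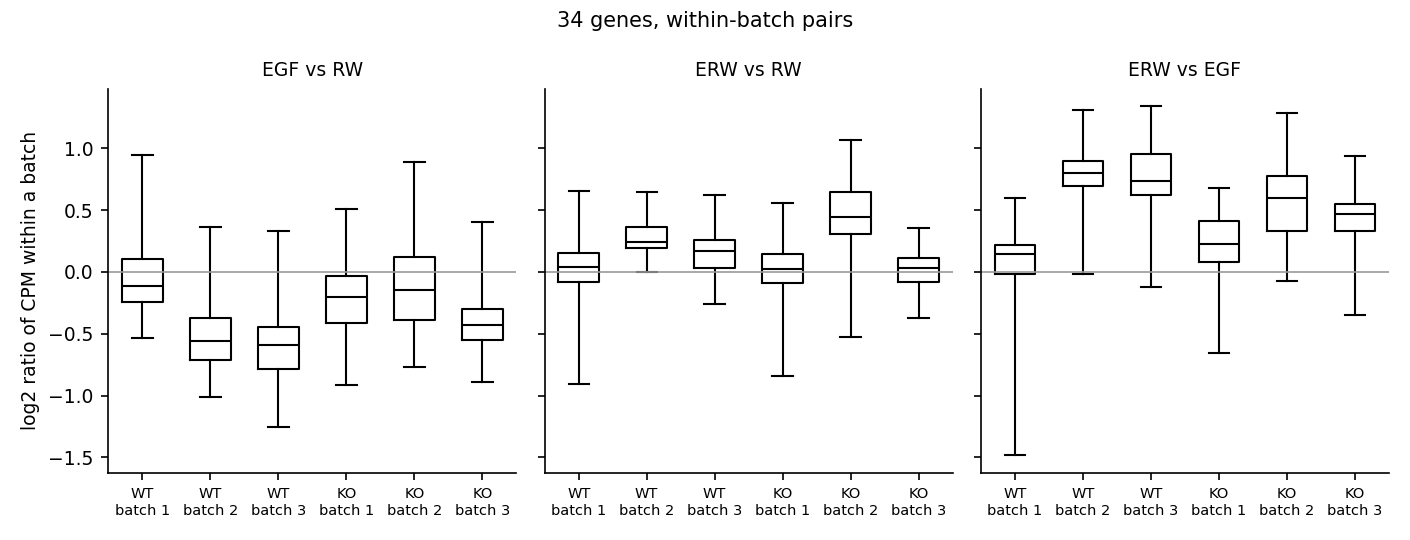
Boxes show the log2 ratio of CPM between 2 media over the 34 genes (y axis) for each genotype and batch; the line is the median, the box the quartiles and the whiskers the lowest and highest gene. All 6 medians are below 0 in EGF against RW medium and above 0 in ERW against EGF medium, and the batch 1 boxes of the latter lie closest to 0.

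Members largely varied together. With the batch means removed, the correlation over 18 libraries of a member with the median of the others was itself 0.88 at the median. It was highest for Mcm4 (0.97). It was lowest for E2f1 (-0.17), Ccne1 (0.41), Gins3 (0.43), Ccne2 (0.57), Fen1 (0.57) and Tk1 (0.64). The 10 other genes most like the median of the list, by the same correlation, were Dtl (0.97), Top2a (0.97), Incenp (0.96), Nek2 (0.96), Ticrr (0.96), H2afx (0.96), Kif4 (0.96), Anp32e (0.96), Ccna2 (0.95) and Foxm1 (0.95). The libraries share their media and groups, so these correlations are descriptions and carry no test.

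Other genes of the cell cycle were taken from lists written from general knowledge, with earlier results of these data known. Their counts are therefore a description and no independent support for the pattern of the members. Of 42 other fork and origin genes, 17 fell and 1 rose in EGF against RW medium, and 29 rose in ERW against EGF medium. Of all genes tested 12.5% fell and 12.9% rose in the first comparison, and 13.4% rose and 14.5% fell in the second. The helicase Recql4 differed by -0.68 and 0.68 on the log2 scale in these 2 comparisons, and Timeless, of the fork protection complex, by -0.62 and 0.66. Of 15 nucleotide supply genes 4 fell and none rose in EGF against RW medium, and 10 rose in ERW against EGF medium. Dctd, the dCMP deaminase, differed by -0.58 and 0.91, and Impdh2, of guanine nucleotide synthesis, by -0.47 and 0.51. Of 21 genes of chromatin assembly and replication-coupled repair 10 fell and none rose, then 16 rose, with Brca2, of homologous recombination, at -0.60 and 0.38 and Hells, a chromatin remodeller, at -0.58 and 0.51. In ERW against RW medium these 3 lists had 4, 2 and 2 genes higher and 0, 1 and 0 lower. Of all genes 11.0% were called higher and 11.9% lower there.

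Of 26 mitosis and G2 genes, 18 fell and none rose in EGF against RW medium, with a median log2 difference of -0.43, and 25 rose in ERW against EGF medium, with a median of 0.57. Of all genes 12.5% fell in the first comparison and 13.4% rose in the second. None of the 26 was called in ERW against RW medium, where 22.9% of all genes were called. Bub1b, of the spindle checkpoint, differed by -0.62 and 0.76, and Cdca8, of the chromosomal passenger complex, by -0.60 and 0.70. Mki67, the proliferation antigen Ki-67, fell by 0.58 ± 0.11 in EGF against RW medium and rose by 0.55 ± 0.11 in ERW against EGF medium. Pcna, the sliding clamp, was at -0.26 ± 0.11 in the first (adjusted p = 0.0861, edgeR) and rose by 0.37 ± 0.11 in the second (adjusted p = 0.0148, edgeR).

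Of 22 E2F and cyclin regulators, 8 fell and 1 rose in EGF against RW medium, 11 rose and 1 fell in ERW against EGF medium, and 3 rose and 3 fell in ERW against RW medium. The shares of all genes were 12.5% lower and 12.9% higher in the first comparison, and 13.4% higher and 14.5% lower in the second. In the third, 11.0% were higher and 11.9% lower, so the counts there were near the share of all genes. Cdkn2c, an inhibitor of the cyclin D kinases, fell by 0.64 in EGF against RW medium and by 0.37 in ERW against RW medium. Fbxo5, which restrains the anaphase-promoting complex, fell by 0.60 in EGF against RW medium and rose by 0.61 in ERW against EGF medium. Cyclin D1 (Ccnd1), which is known to respond to mitogens and to Wnt signalling, had 745, 815 and 893 CPM in WT_RW, 310, 371 and 334 CPM in WT_EGF and 476, 631 and 675 CPM in WT_ERW. In KO it had 712, 728 and 897 CPM in RW medium, 255, 310 and 377 CPM in EGF medium and 470, 521 and 653 CPM in ERW medium. Its groups did not overlap between media within either genotype, a comparison of 3 against 3 libraries whose share over all genes was not counted. It fell by 1.29 ± 0.06 in EGF against RW medium and by 0.49 ± 0.06 in ERW against RW medium, so that its order of media, RW, ERW, EGF, was shared with 3 of the 34 members.

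Markers of other cell types also differed between media. Averaged over genotypes, all 10 endothelial and all 10 adipocyte markers fell in ERW medium against both other media, with median log2 differences of -1.29 and -2.05 against EGF medium. Of 10 fibroblast markers 8 fell and 1 rose in ERW against EGF medium, and of 10 myeloid markers 5 fell. Of all genes 14.5% fell and 13.4% rose in that comparison, and 11.9% fell in ERW against RW medium. In EGF against RW medium 12.5% of all genes fell and 12.9% rose. In EGF against RW medium, 2 fibroblast markers rose and 1 fell, no endothelial marker passed the test, 2 adipocyte markers fell and 1 myeloid marker, Cd14, rose. Of 10 epithelial markers 5 fell and 3 rose in EGF against RW medium, the basal keratins Krt5 and Krt14 by 1.15 and 0.97. Summed per library, fibroblast markers ranged over 2212 to 6062 CPM in WT_RW, 3074 to 6089 CPM in WT_EGF and 1394 to 3278 CPM in WT_ERW, and over 2800 to 5594 CPM, 2824 to 4516 CPM and 1592 to 2857 CPM in the same media of KO. Epithelial markers ranged over 9791 to 12150 CPM in WT_RW, 7426 to 8398 CPM in WT_EGF and 8300 to 9780 CPM in WT_ERW, and over 9202 to 11606 CPM, 6463 to 9875 CPM and 7824 to 10414 CPM in those of KO. Myeloid markers ranged over 226 to 361 CPM in WT_RW, 705 to 1046 CPM in WT_EGF and 383 to 665 CPM in WT_ERW. In KO they ranged over 296 to 351 CPM, 731 to 918 CPM and 413 to 755 CPM in the same media. Their RW and EGF sums did not overlap in either genotype. Cd14, higher by 1.53 on the log2 scale, was the only 1 of the 10 called between these media. Its part in the sums was not tested. The part of these shifts in the values of the replication genes was not tested, and in such bulk RNA fewer cycling cells and less RNA per cell cannot be told apart.

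The authors' deposited table of comparisons was made from the same libraries and was read at an adjusted p under 0.05. Shares of all genes in brackets are over the 17092 genes tested here, with a missing adjusted p counted as not called. For WT it lists 17 members lower and 1 higher in EGF against RW medium (18.3%). It lists 23 lower in EGF against ERW medium (19.5%) and 1 higher in ERW against RW medium (13.8%). For KO the authors' deposited table lists 9 members higher and 1 lower in RW against EGF medium (16.5% of all genes), 17 higher in ERW against EGF medium (15.4%) and 2 higher in ERW against RW medium (15.7%). The authors' deposited table also lists 23 members higher and 1 lower in batch 2 against batch 1 (43.4% of all genes) and 30 higher in batch 3 against batch 1 (38.4%). Between the genotypes it lists no member in EGF (0.193% of all genes), RW (0.228%) or ERW medium (0.205%). The authors' terms for a genotype difference in the response to medium were not examined.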

How the data were processed

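RNA counts per gene of 18 mouse mammary organoid libraries were compared, 3 for each of 6 groups. The authors deposited whole-number read counts, 1 row for each of 55536 Ensembl genes. Per the submitters' processing notes the tools were STAR and DESeq2 and the build GRCm38; which versions, annotation release and strand setting applied is not given in the sources used here. Per the file headers, a further deposited table holds a normalized signal, variance-stabilized values on a log2 scale and the GC percent of each gene. Per the file headers it also holds the log2 fold change, its ratio as a fold, the p-value and the adjusted p-value of each of the authors' comparisons, whose terms include the batch.

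The members and gene lists were chosen with earlier results of these data known, and the 6 roles were assigned from general knowledge. The counts were normalized with TMM and tested with the robust quasi-likelihood test of edgeR 4.0.16 under R 4.3.3, after filterByExpr (min.count 10, min.total.count 15). All 18 libraries entered 1 fit with a mean per group and the batch, with Benjamini-Hochberg adjustment over 17092 genes within each of 16 contrasts at 0.05. Contrasts over genotypes average WT and KO. Each SE was derived from the test, as the absolute log2 difference divided by the square root of its quasi-likelihood F statistic. CPM are counts scaled to an effective library size of 1000000. With 3 libraries against 3, an exact permutation test cannot go below p = 0.1, so calls rest on the spread shared across genes.

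The labels give the replicate number as a batch, and libraries of 1 batch deviated together from their group means. The correlation was 0.175 to 0.453 over 45 pairs of the same batch. Over 90 pairs of different batches the median was -0.157. With the group means removed, that median must be negative when the same-batch values are positive, so it is no independent comparison. The labels do not say that libraries of a group came from separate animals, so p-values measure the spread between these cultures. Alternatives were RLE size factors, DESeq2 1.42.0, no filter on low counts, no batch, the compared groups only, and leaving out each library or batch. Per-library values are given for up to 6 members with the largest changes per contrast over genotypes and for members of each role with high counts; outside the list, the 2 called genes of each list with the largest change in EGF against RW medium are named, with Pcna, Mki67, Ccnd1 and Rasgrp1.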

Additional observations from a re-analysis of the deposited data

How the results depend on the processing

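None of the members called in the media contrasts over genotypes changed direction under any setting tried, while values near 0 of members that were not called, such as Gins3 in ERW against EGF medium, could change sign. Without the replicate block, that is with the batch left out of the model, the number of members called fell to 6 in EGF against RW, 0 in ERW against RW and 8 in ERW against EGF medium over genotypes, to 1 and 0 in EGF against RW and ERW against EGF medium in WT, and to 0 in each of the 3 media contrasts in KO. The shares of all genes called in those fits, given above, were also lower. DESeq2 called 1 in ERW against RW medium in WT, 10 in EGF against RW and 2 in ERW against RW medium in KO. Of 17092 genes it called 1058 higher and 1345 lower in the first. The counts were 1487 and 1331 in the second and 1260 and 1492 in the third. With the compared groups only, the counts were 4 in ERW against RW medium in WT, and 12 in EGF against RW and 0 in ERW against RW medium in KO. Of 15536 genes 1242 were called higher and 1409 lower in the first of these. The counts were 1233 and 1031 of 15295 genes in the second and 763 and 898 of 15394 in the third. With no filter on low counts ERW against RW medium over genotypes gave 2 members, with 1748 genes higher and 1805 lower of 30170. Leaving out a library or batch gave 7 to 24, 1 to 6 and 14 to 28 members in EGF against RW, ERW against RW and ERW against EGF medium over genotypes. The share of all genes called moved as well, over 12.2% to 24.4%, 13.2% to 21.1% and 10.7% to 26.7% in turn. In WT the ranges of members were 1 to 21, 0 to 0 and 2 to 28, and in KO 1 to 7, 0 to 3 and 1 to 17. Those of all genes were 5.56% to 14.4%, 4.5% to 8.25% and 3.75% to 15.2% in WT. In KO they were 5.2% to 11.3%, 5.51% to 10.9% and 2.1% to 8.25%. The genotype contrasts and interactions stayed at 0 under all these settings. Depth limits the rarer members, such as Orc1 with 66 to 277 counts, more than Mcm6, and 3 libraries a group limit the contrasts between genotypes.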
